A study of Mus musculus with 4 samples.

Results

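The Ly6h and Cldn9 endoderm is a population of epithelial cells found almost wholly in control embryoid bodies, which are aggregates of differentiating embryonic stem cells. Its cells were chosen by measured counts, as the kept cells with at least 1 unique molecular identifier (UMI, a count of captured RNA molecules) in 5 or more of Ly6h, Rarres1, Camkv, Cldn9, Cyp2s1 and Igfbp1. Cells with 2 or more UMIs in 4 or more of Trh, Prss12, Col9a3, Sp5, Slc7a7 and Eomes, which mark another endoderm population, were left out. The rule found 1116 member cells among 8876 kept cells. DUX-pulsed libraries 1 and 2 held 18 and 11 member cells, and control libraries 1 and 2 held 469 and 618. They made up 0.873% and 0.813% of DUX-pulsed kept cells (exact binomial 95% intervals 0.518 to 1.38% and 0.407 to 1.45%), against 16.6% and 23.4% of control kept cells (15.3 to 18.0% and 21.8 to 25.1%). The group means were 0.843% ± 0.0421 and 20.03% ± 4.83 (SD, n = 2 libraries each). The 6 selecting genes came from a cluster already known to be rich in control cells, so these shares describe the choice of cells and carry no test.

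The study measured droplet-based single-cell RNA at day 9 in embryoid bodies grown from mouse embryonic stem cells. The DUX-pulsed stem cells had been exposed to a pulse of DUX, a transcription factor of the early cleavage-stage embryo, and the control stem cells had not. The series design calls the 2 libraries of each group biological replicates. Its labels give no strain, sex, genotype or inducing agent, nor the length of the pulse, and they call the material an organoid of cultured stem cells. Cells were kept if 500 or more genes were detected in them and mitochondrial transcripts took no more than 10% of their counts, out of 10090 cells and 20284 genes in the table. DUX-pulsed members held 588929 and 505719 UMIs per library and control members 19503099 and 22792167, so every DUX-pulsed value rests on far fewer cells and molecules. Their median depth was 27461.5 and 42364 UMIs per DUX-pulsed cell, against 32737 and 31865 per control cell. Their median mitochondrial share was 4.66% and 4.53%, against 6.53% and 6.83%, and its part in the differences below was not tested. Pairs of libraries shared 0 to 2 cell barcodes, and no member cell was among them.

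Endoderm is the germ layer that lines the gut and its glands, and an extra-embryonic branch of it forms the yolk sac epithelium. Both branches are epithelia held together by claudins, use FOXA, GATA and HNF transcription factors, and secrete carrier proteins for lipids, vitamins and hormones. The selecting genes belong to several such functions. Ly6h encodes a small protein anchored to the outer membrane, of the Ly6 family. Cldn9 encodes a claudin of the tight junction. Rarres1 was named for its induction by retinoids, and Cyp2s1 is a cytochrome P450 enzyme. Igfbp1 is a secreted binder of insulin-like growth factors, and Camkv is a kinase-like protein without catalytic activity that is best known from neurons.

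Promoter windows from RefSeq (GRCm38.p6, 250 bases before to 50 bases after the start of the gene) were on hand for 4 of the 6 selecting genes: Rarres1, Camkv, Cyp2s1 and Igfbp1. The 2 printed below are shown because, among these 4 genes, Cyp2s1 was detected in the most member cells and Igfbp1 in the fewest. They lie at chr7:25816476-25816775 on the minus strand (Cyp2s1) and chr11:7197537-7197836 on the plus strand (Igfbp1). Capitals mark the only match to the HNF1 half-site GTTAAT, searched on both strands; it stands as its reverse complement.
Cyp2s1: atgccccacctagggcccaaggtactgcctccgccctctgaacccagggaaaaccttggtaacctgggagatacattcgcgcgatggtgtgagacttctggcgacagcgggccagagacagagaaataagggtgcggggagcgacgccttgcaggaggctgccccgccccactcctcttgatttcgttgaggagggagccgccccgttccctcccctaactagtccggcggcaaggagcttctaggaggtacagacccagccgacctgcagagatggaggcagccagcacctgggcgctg
Igfbp1: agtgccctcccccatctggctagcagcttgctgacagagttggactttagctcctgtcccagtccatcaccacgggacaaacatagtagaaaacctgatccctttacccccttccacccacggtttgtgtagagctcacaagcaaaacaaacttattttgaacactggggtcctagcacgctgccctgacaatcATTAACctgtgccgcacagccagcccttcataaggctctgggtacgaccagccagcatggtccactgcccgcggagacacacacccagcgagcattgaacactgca
The match in the Igfbp1 window begins 56 bases before the start, and the half-site occurred in 7.10% of 32851 promoter windows of this length. The forkhead motif TGTTTAC, in 3.65% of windows, and the GATA motif AGATAA, in 11.2%, were in none of the 4.

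The selecting genes were not detected evenly. Cyp2s1 (chromosome 7, 25802475 to 25816913, mm10) had a UMI in all member cells of both DUX-pulsed libraries, and in 97.7% and 98.4% of control members. Ly6h (chromosome 15, 75551268 to 75567255) had one in all DUX-pulsed members as well, and in 99.4% and 100% of control members. Igfbp1 (chromosome 11, 7197782 to 7202546) had one in 55.6% and 72.7%, against 46.5% and 47.4%, and was thus the gene most often missing: among control members with exactly 5 selecting genes, 251 of 357 and 325 of 464 lacked it. The cells just outside the rule, with 4 selecting genes, numbered 93 in DUX-pulsed and 794 in control libraries. Those just inside, with 5, numbered 24 and 821, and those with all 6 numbered 5 and 266. Ly6h stood at 249 CPM (summed UMIs scaled per library to a common total) in the DUX-pulsed cells with 4 genes and 511 CPM in those with 5, and at 580 and 699 CPM in the corresponding control cells. In the controls, 23 and 10 cells met the first condition and were removed as Trh and Prss12 cells, and none were removed in the DUX-pulsed libraries.

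Among the member cells, DUX-pulsed library values of Ly6h were 533 and 457 CPM and control values 728 and 695 CPM. Rarres1 (chromosome 3, 67478972 to 67515523) stood at 79.8 and 53.4 CPM, against 102 and 127 CPM in the controls. Cldn9 (chromosome 17, 23682584 to 23684026) stood at 52.6 and 17.8 CPM, against 97.3 and 98.2 CPM. In all of these the 2 DUX-pulsed libraries lay below both controls. Camkv (chromosome 9, 107935674 to 107949691) was at 42.4 and 21.8 CPM, against 60.2 and 65.5 CPM, and Cyp2s1 at 95.1 and 85.0 CPM, against 113 and 119 CPM. Igfbp1 was at 28.9 and 247 CPM, against 177 and 248 CPM, and 104 of the 125 UMIs in DUX-pulsed library 2 came from 1 cell. Of the 6 genes, the groups overlapped for Igfbp1 only. These genes chose the cells, and 52.1% of all genes tested below did not overlap between the groups either. For comparison, cardiomyocyte-like cells (2 or more UMIs in 4 or more of Myh6, Tnnt2, Actc1, Myl7 and Ttn) carried a Ly6h UMI in 2.18% and 4.06% of DUX-pulsed and 8.45% and 9.00% of control cells, at median depths of 22464.5 to 27906 UMIs. Cyp2s1 had the highest share there, 8.98% and 21.4% against 11.3% and 10.0%. Whether these UMIs came from free RNA in the droplets was not tested.

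**Figure D1:**
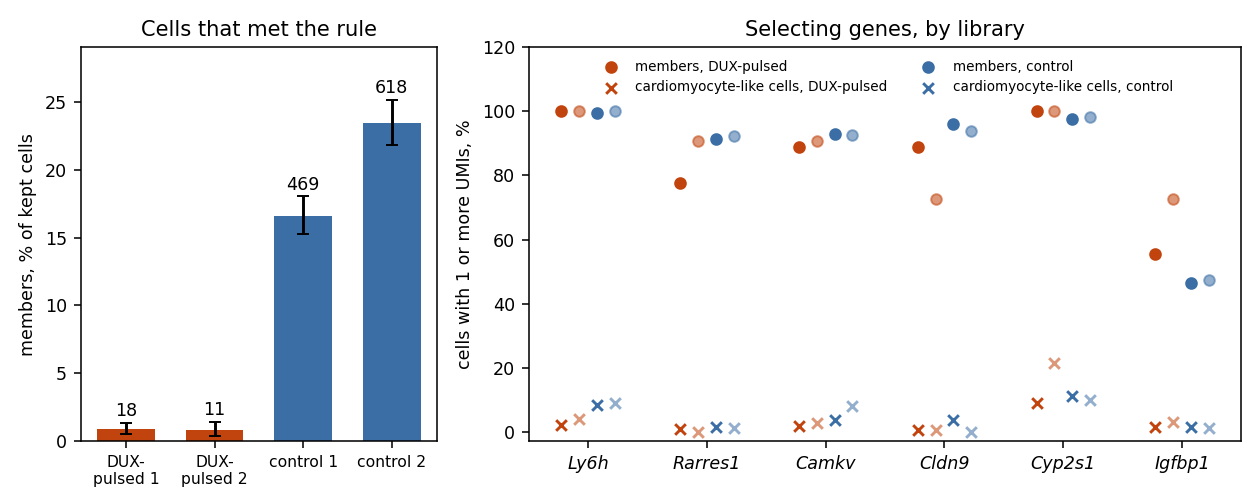
Left, member cells as a percentage of kept cells in each library (bars), with exact binomial 95% intervals and the number of cells above each bar. Right, percentage of cells with at least 1 UMI of each selecting gene, with circles for member cells, crosses for cardiomyocyte-like cells, and paler symbols for library 2. Igfbp1 was detected in 46.5% and 47.4% of control members, and the other 5 genes in at least 91.5% of them.

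The endoderm label was checked against a list of epithelial and endoderm genes, of which 14 of 16 stood at 10 CPM or more in members of both controls. The list summed to 8184 and 7916 CPM in control members, against 6056 and 6183 CPM in other kept control cells. Control Trh and Prss12 cells were close, at 6947 and 6641 CPM. In both controls, 11 of the genes were higher in members than in other kept cells and 3 were lower. Epcam, the epithelial adhesion molecule, stood at 584 and 850 CPM in DUX-pulsed and 584 and 735 CPM in control members. Foxa2, a pioneer factor of endoderm, was at 79.8 and 101 CPM, against 114 and 125 CPM, and Sox17 at 84.9 and 200 CPM, against 148 and 150 CPM. Hnf4a, Gata4 and Gata6 were also present, at 47.7 to 185 CPM in the control members. The claudins Cldn3 and Cldn4, at 3.47 to 8.12 CPM, were the 2 members of the list under 10 CPM. Blood and cardiomyocyte genes were lower in members than in other kept cells. Summed over the list, blood genes had 8.49 and 9.89 CPM in DUX-pulsed members and 111 and 16.4 CPM in control members, against 2928 and 5615 CPM and 899 and 1353 CPM in the other kept cells of the same libraries. The cardiomyocyte list summed to 194 and 164 CPM in DUX-pulsed and 223 and 130 CPM in control members, against 7413 and 9629 CPM and 2057 and 2182 CPM in the other cells. The endothelium list summed to 345 and 409 CPM in DUX-pulsed and 838 and 906 CPM in control members, against 422 and 406 CPM and 578 and 582 CPM in the other cells, so it was higher in control members than in their neighbours. Most of it came from Flt1 and Ramp2, a pair picked out after the values were seen: the other 11 genes summed to 28.9 and 29.7 CPM in DUX-pulsed and 32.0 and 29.4 CPM in control members, against 217 and 234 CPM and 136 and 74.3 CPM. The pluripotency list summed to 248 and 285 CPM in DUX-pulsed and 545 and 587 CPM in control members, against 237 and 135 CPM and 469 and 420 CPM in the other cells. Its largest member was Tdh, threonine dehydrogenase, at 358 and 390 CPM in control members. Most of the rest there came from the pluripotency factors Tfcp2l1 and Klf4. Without these 3, picked out after the values were seen, the other 11 genes summed to 21.1 and 17.9 CPM in control members. In the other control cells they summed to 134 and 61.0 CPM. Among the 11, the core factors Pou5f1 and Nanog were at 1.27 CPM or less in members of every library. The part of these lists in the differences below was not tested.

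The member cells carried some genes of both branches. In both controls, 6 of 20 visceral and primitive endoderm genes were higher in members than in other kept cells, and 13 were lower. The sum of this list was higher, at 26966 and 26409 CPM against 16827 and 19213 CPM. Of 15 definitive endoderm genes, which include Trh of the rule, 5 were higher and 9 lower. Their sum was 7136 and 7731 CPM, against 8975 and 10031 CPM. Rbp4, the plasma carrier of retinol, stood at 14316 and 11461 CPM in DUX-pulsed members, against 14194 and 13677 CPM in control members. Ttr, which carries thyroid hormone and the Rbp4 complex, stood at 4396 and 4785 CPM, against 7419 and 7010 CPM. The endocytic receptor genes of visceral endoderm differed in level. Lrp2 had 5.09 and 5.93 CPM in DUX-pulsed and 11.2 and 12.0 CPM in control members, and Cubn had 11.9 and 11.9 CPM, against 22.9 and 20.7 CPM. Amn, the membrane partner of cubilin, had 18.7 and 3.95 CPM in DUX-pulsed and 178 and 153 CPM in control members. The anterior endoderm gene Cer1 had no UMI in DUX-pulsed members and 0.0513 and 0 CPM in control members. Cdx2, a homeobox factor of hindgut and trophectoderm, stood at 124 and 87.0 CPM, against 109 and 111 CPM, and was detected in 85.7% and 86.2% of control members, while the posterior factor T was at or near 0 CPM in every library.

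Members were compared with the other kept cells of the control libraries over genes at 50 CPM or more in members of both, with the genes of the rule left out. The 20 genes with the largest ratios were 1.92 to 4.38 times higher in members in these libraries. These values describe the cells that the rule chose and carry no test. Ghrl, the precursor of the hormone ghrelin, stood at 77.0 and 99.7 CPM in members, against 17.6 and 25.4 CPM in other cells. Epas1, a hypoxia-inducible transcription factor, had 147 and 166 CPM, against 55.6 and 59.0 CPM. Flt1, a VEGF receptor best known from endothelium, had 394 and 466 CPM, against 197 and 236 CPM, while the endothelial genes Pecam1 and Cdh5 were at 0.205 to 1.08 CPM in the same members. Dio3, which inactivates thyroid hormone, had 139 and 157 CPM, against 41.2 and 64.4 CPM, and Fabp2, an intestinal fatty acid binder, had 90.5 and 86.6 CPM, against 32.1 and 37.6 CPM. Rbp4 had 14194 and 13677 CPM, against 5965 and 6938 CPM. The natriuretic peptide receptor Npr3, the chloride transporter Slc12a2, the connexin Gjb1 and the prostaglandin transporter Slco2a1 were also among the 20.

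The Trh and Prss12 cells are the nearest excluded population, with 0 and 8 cells in the DUX-pulsed and 338 and 219 in the control libraries. The midgut, pancreas and stomach list summed to 324 and 310 CPM in control members, against 103 and 117 CPM in control Trh and Prss12 cells. The primed epiblast and primitive streak list, which holds Eomes and Sp5 of the rule, summed to 103 and 123 CPM, against 1111 and 1054 CPM. Ghrl stood at 77.0 and 99.7 CPM in control members, against 2.13 and 1.15 CPM in control Trh and Prss12 cells. Tff3, a trefoil peptide of mucous epithelium, had 145 and 112 CPM in members, 14.1 and 14.0 times the level in Trh and Prss12 cells, and Fabp2 had 90.5 and 86.6 CPM, against 7.63 and 5.33 CPM. In the opposite direction, Fgf5, a marker of the primed epiblast, had 1.49 and 1.58 CPM in members, against 106 and 99.8 CPM. Fgf8 had 0.359 and 2.85 CPM, against 118 and 91.6 CPM, and the node and axial mesendoderm factor Lhx1 had 2.51 and 1.97 CPM, against 88.6 and 56.3 CPM. The de novo DNA methyltransferase Dnmt3b had 34.3 and 37.4 CPM, against 288 and 363 CPM. Ratios for these falls were as low as 0.00304 in one control library.

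**Figure D2:**
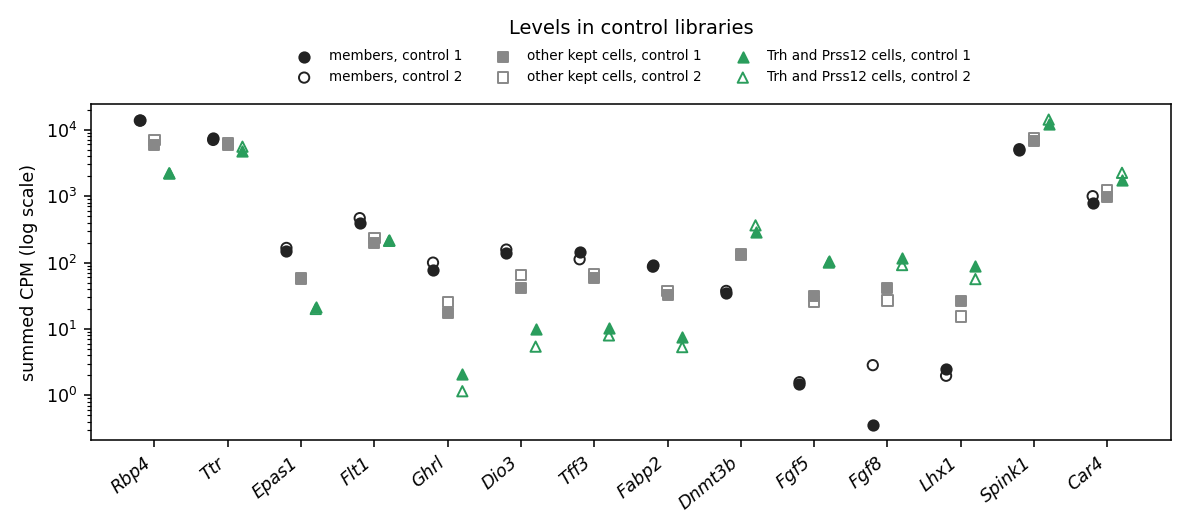
Summed CPM on a log scale of 14 genes in the 2 control libraries, for members (circles), other kept cells (squares) and Trh and Prss12 cells (triangles), with filled symbols for control 1 and open symbols for control 2. In both libraries members lie highest for Rbp4, Ttr, Epas1, Flt1, Ghrl, Dio3, Tff3 and Fabp2, and lowest for Dnmt3b, Fgf5, Fgf8, Lhx1 and Spink1.

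A second neighbour was the cells with 2 or more UMIs in both Ghrl and Pyy that were neither members nor Trh and Prss12 cells. They numbered 42 and 21 in DUX-pulsed and 14 and 19 in control libraries. Control members carried Ly6h at 728 and 695 CPM, against 722 and 726 CPM in control Ghrl and Pyy cells, and Rarres1 at 102 and 127 CPM, against 91.2 and 131 CPM. The other selecting genes were higher in members of both controls. Igfbp1 stood at 177 and 248 CPM, against 48.0 and 36.3 CPM, and Cldn9 at 97.3 and 98.2 CPM, against 69.6 and 39.2 CPM. Camkv stood at 60.2 and 65.5 CPM, against 52.8 and 33.4 CPM, and Cyp2s1 at 113 and 119 CPM, against 96.0 and 72.6 CPM. In the DUX-pulsed libraries the Ghrl and Pyy cells carried Ly6h at 249 and 211 CPM and Rarres1 at 5.23 and 7.02 CPM. Genes higher in control members than in control Ghrl and Pyy cells included Sfrp5, a secreted WNT antagonist, at 64.2 and 56.9 CPM against 21.6 and 16.0 CPM. The basement membrane collagens Col4a1 and Col4a2 were also among them, Col4a1 at 1020 and 1259 CPM against 564 and 711 CPM.

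Levels varied among member cells. Across control members, the correlation between pairs of selecting genes, on a log scale of each cell's share of UMIs, lay between -0.10 and 0.37 over 15 pairs (n = 469 and 618 cells), and all such values share the depth of the cell. The rule asked for 5 or more of these same genes, which shapes the correlations, so they describe the chosen cells and show no relation between the genes. Pairs with Igfbp1 lay between -0.10 and 0.06. The median control member had 0 UMIs of it in both libraries, the 90th percentile was 23.0 and 24.0 UMIs, and the highest cells held 181 and 226. Ghrl had the same kind of spread, with a median of 0 UMIs and highest cells at 158 and 198 UMIs in the controls. In contrast, Rbp4 was in every member cell, with medians of 398.5 and 551 UMIs in the DUX-pulsed and 512 and 436.5 UMIs in the control libraries. The genes whose levels across control members went most closely with the mean log level of the 6 selecting genes, out of those detected in at least 20% of cells, were Flt1, Cadm1, Mmp14, Ankrd37, Epas1, Cd24a, Bsg and Itga6, with Pearson's r between 0.33 and 0.45 in the 2 libraries.

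**Figure D3:**
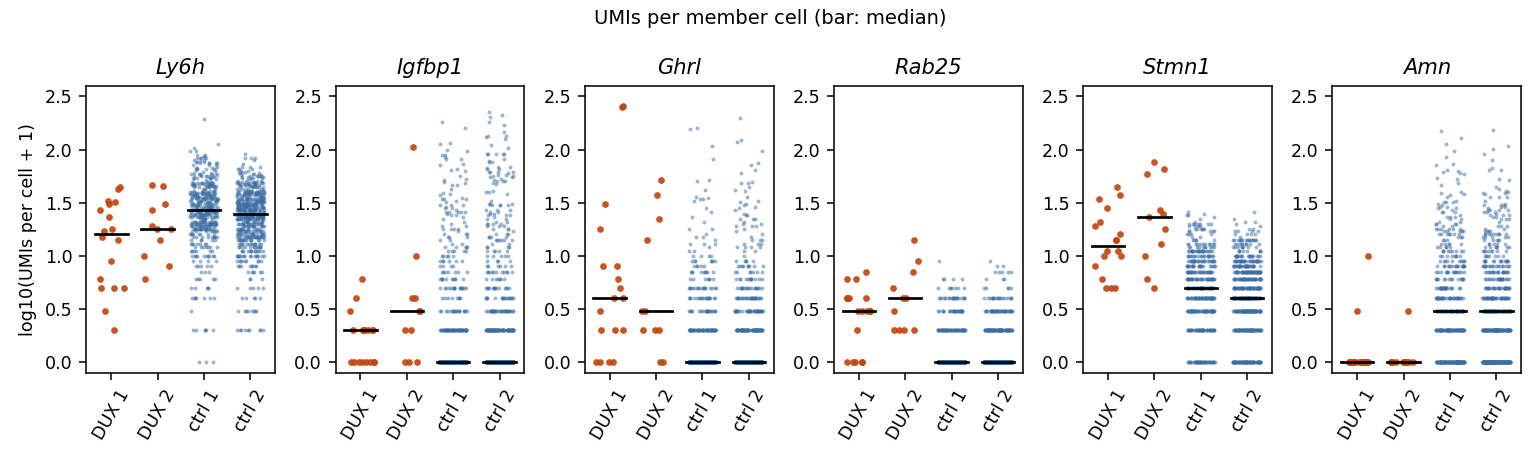
UMIs per member cell as log10(UMIs + 1) for Ly6h, Igfbp1, Ghrl, Rab25, Stmn1 and Amn, with 1 point per cell and the median as a bar, in DUX-pulsed libraries 1 and 2 (18 and 11 cells) and control libraries 1 and 2 (469 and 618 cells). Stmn1 had at least 4 UMIs in every DUX-pulsed member, and Amn had none in most of them.

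The few member cells of the DUX-pulsed libraries differed from those of the controls in 571 of 12506 genes tested (4.57%). Of these, 357 rose and 214 fell in DUX-pulsed members (2.85% and 1.71% of genes tested), by edgeR's quasi-likelihood test on summed UMIs at an adjusted p under 0.05. The 12 genes of the rule were among those tested, and of these Cldn9 and Prss12 were called lower, which describes the choice of cells. Without the 12, 569 of 12494 genes were called, and 212 of them fell. Each DUX-pulsed sum rested on 18 or 11 cells. Of the 214 falls, 25 had no UMI in DUX-pulsed members, where levels up to 5.09 and 5.93 CPM could have gone unseen (3 counts each). Leaving out control library 1 left 3 rises and 2 falls among 7104 genes tested, and leaving out control library 2 left 5 and 9. In the full fit both groups shared 1 estimate of spread per gene, so the small DUX-pulsed sums were taken to vary like the control sums. Spreads differed in both directions: the SD of Ghrl was 572 CPM in DUX-pulsed and 11.7 CPM in control members (TMM-scaled). That of Apob was 5.78 and 152 CPM. An unadjusted p under 0.05 was reached by 18.1% of genes. In the other kept cells, 23.6% of 15930 genes were called (13.8% higher and 9.89% lower), and 38.2% had an unadjusted p under 0.05. From here on, levels in CPM use library sizes scaled by TMM.

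The largest rises included a gut hormone gene, an epithelial GTPase gene and a G1 cyclin gene. Ghrl had 1063 and 254 CPM in DUX-pulsed members, against 77.3 and 93.8 CPM in control members. The naming rule required both DUX-pulsed libraries to lie above both controls, and 14 of 18 and 9 of 11 DUX-pulsed members had a Ghrl UMI. In DUX-pulsed library 1, 510 of its 591 UMIs came from 2 cells. Its log2 fold change was 2.95 (SE 0.40, adjusted p = 0.000917 by edgeR). Rab25, a small GTPase of epithelial vesicle recycling (chromosome 3, 88542029 to 88548300), had 70.1 and 85.4 CPM, against 11.9 and 12.7 CPM. It was spread over cells, with a UMI in 13 of 18 and 11 of 11 DUX-pulsed members, against 25.6% and 25.9% of control members (log2 fold change 2.65, SE 0.24, adjusted p = 3.99e-05 by edgeR). Stmn1, which destabilizes microtubules (chromosome 4, 134468320 to 134473843), had 504 and 632 CPM, against 133 and 112 CPM, and at least 4 UMIs in every DUX-pulsed member. Nnat, an imprinted membrane proteolipid gene, had 167 and 147 CPM, against 30.6 and 35.3 CPM. Ccnd1, the cyclin of G1 phase, had 75.5 and 37.7 CPM, against 6.39 and 7.55 CPM, and was seen in 8 and 4 DUX-pulsed cells. The hepatic and pancreatic factor Onecut2 had 46.8 and 71.5 CPM, against 19.7 and 13.2 CPM. Vcan, Ptch1, St3gal1, Espn, Nop16 and Snhg12 completed the 12, with log2 fold changes from 1.79 to 3.03 over all 12. Of the 12 rises, 10 were also called higher in the other kept cells, Ghrl among them with a log2 fold change of 2.40.

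The largest falls included genes of a vitamin uptake receptor, a gap junction, an apolipoprotein and retinoic acid breakdown. Amn, the membrane partner of the receptor cubilin (chromosome 12, 111271095 to 111276426), had 19.8 and 3.97 CPM in DUX-pulsed members, against 179 and 144 CPM in control members. It was present in 2 of 18 and 1 of 11 DUX-pulsed members, against 74.0% and 68.3% of control members (log2 fold change -3.72, SE 0.37, adjusted p = 0.000121 by edgeR). Gjb1, a connexin of gap junctions, had 5.40 and 5.96 CPM, against 58.0 and 54.6 CPM, from 3 UMIs in each DUX-pulsed library. The zinc transporter gene Slc39a5 had 10.8 and 3.97 CPM, against 61.0 and 46.3 CPM. Cited1, a transcriptional co-activator, had 54.0 and 167 CPM, against 554 and 372 CPM, and 1 cell held 90.5% of its UMIs in DUX-pulsed library 2. Cyp26a1, which breaks down retinoic acid, had 18.0 and 11.9 CPM, against 53.2 and 58.5 CPM. Apoc1, an apolipoprotein gene, had 55.7 and 51.7 CPM, against 233 and 152 CPM. Bace2, Retreg1, Ifi27l2b, Cyp3a13, Ramp2 and Nefl completed the 12. The naming rule required the DUX-pulsed libraries to lie below both controls, and 52.1% of all genes tested did not overlap between the groups. Of the 12 falls, 8 were also called lower in the other kept cells. When cells with 4 or more selecting genes were used, Cited1, Cyp26a1, Ifi27l2b and Nefl were not called (log2 fold changes -1.05, -0.31, -0.69 and -0.34).

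**Figure D4:**
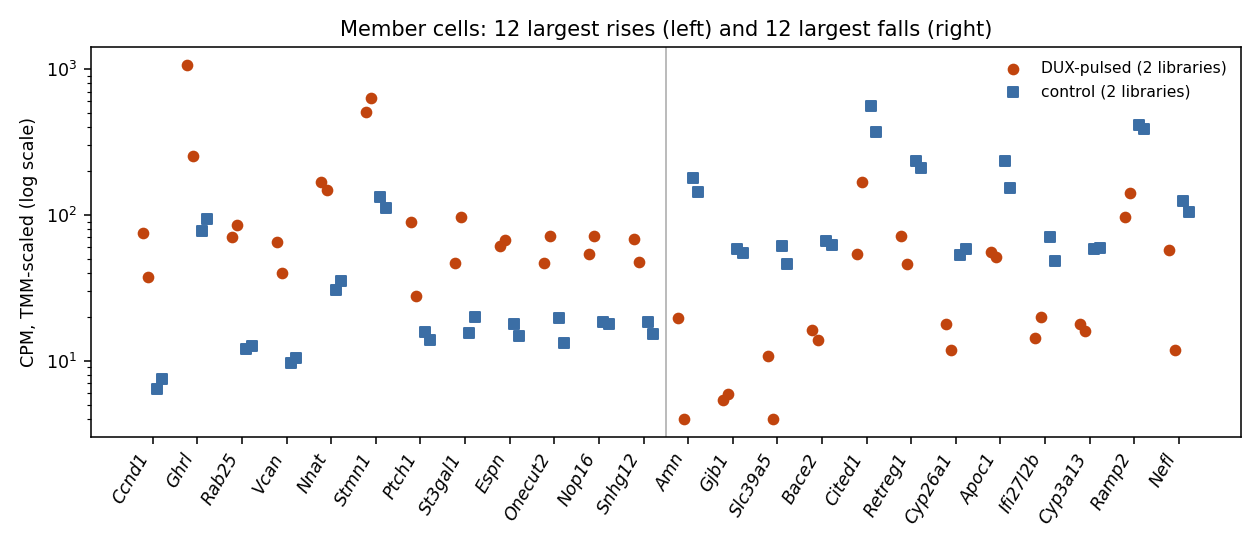
CPM over TMM-scaled library sizes, on a log scale, of the 12 largest rises (left of the line) and the 12 largest falls (right) in member cells, with DUX-pulsed libraries as circles and control libraries as squares. The groups do not overlap for any of the 24 genes, which the rule for naming them required.

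Of 36 lists of related genes, 25 held at least 1 called gene. Of the 328 distinct list genes tested, the rule's own genes left out, 24 rose (7.32%) and 33 fell (10.1%), beside 2.85% and 1.71% of all genes tested. The larger control sums could meet the count filter alone, so genes with few or no DUX-pulsed UMIs could enter as falls. A gene seen only in DUX-pulsed members needed a far higher level to be tested. Dnd1 and Msx1, with no DUX-pulsed UMI, were among the 33, and the shares carry this bias. The lists were chosen with earlier results of these data known. Of the 24 rises, 6 lay in the shifted parts of chromosomes 4 and 13 described below. The visceral, definitive and parietal endoderm lists each held more falls than rises. Of 18 tested genes of visceral and primitive endoderm, 2 rose and 6 fell, with a median log2 fold change of -0.89 against -0.07 over all tested genes (-0.89 and -0.02 with genes that had no UMI in DUX-pulsed members set at the bound of 3 counts). Apob, the structural protein of lipoproteins, had 268 and 276 CPM in DUX-pulsed members, against 753 and 968 CPM in control members (log2 fold change -1.66, SE 0.20, adjusted p = 0.0004 by edgeR). Apoa1, Apom, Fgb, Msx1 and Amn were the other falls, and Msx1 had no UMI in DUX-pulsed members. Apom was not called without DUX-pulsed library 1 (log2 fold change -0.63, adjusted p = 0.195 by edgeR). Afp, the fetal albumin homologue, was one of the rises, at 899 and 1271 CPM against 508 and 562 CPM. Rhox5 was the other, with a log2 fold change of 3.78, which was 0.55 without DUX-pulsed library 1. In the definitive endoderm list 1 of 13 rose and 3 fell. Nepn, an early gut endoderm proteoglycan gene, had 831 and 1067 CPM, against 379 and 500 CPM (log2 fold change 1.11, SE 0.20, adjusted p = 0.00458 by edgeR). Pyy, a gut peptide hormone, fell to 10.8 and 9.93 CPM in DUX-pulsed members, against 38.9 and 40.8 CPM in control members. Its DUX-pulsed UMIs came from 2 cells and 1 cell, and its direction turned when cells with 4 or more selecting genes were used (log2 fold change 0.14, adjusted p = 0.805 by edgeR). A stricter cell filter asked for 1000 or more genes and no more than 5% mitochondrial counts. Under it, the calls of Afp, Rhox5, Apoa1, Nepn and Pyy were lost, with log2 fold changes of 1.13, 3.18, -0.80, 0.73 and -2.34.

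The parietal endoderm list, of cells that lay down basement membrane, had 5 falls and 0 rises among 13 tested genes by edgeR, with 0 rises by DESeq2 and 1 gene higher at an unadjusted p under 0.05. Its falls were Lamb1, Col4a1, Col4a2, Pth1r and Srgn. Without DUX-pulsed library 1, Lamb1 and Pth1r were not called (log2 fold changes -0.70 and -0.75), nor was Lamb1 without DUX-pulsed library 2 (-0.64). Col4a1 had 543 and 439 CPM in DUX-pulsed members, against 1025 and 1185 CPM in control members. The midgut, pancreas and stomach list had 3 rises among 7, which were Ghrl, Onecut1 and Onecut2, and 0 falls by edgeR, by DESeq2 and at an unadjusted p under 0.05. Onecut1 was not called without DUX-pulsed library 2 (log2 fold change 1.14). The hindgut list had 0 calls among the 2 genes tested, by edgeR, by DESeq2 and at an unadjusted p under 0.05: Cdx2 had 131 and 87.4 CPM, against 109 and 105 CPM, and Wnt5a had 101 and 97.3 CPM, against 87.4 and 99.7 CPM. The DUX-pulsed and control libraries overlapped for both genes.

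Of the function lists, solute transport held the most called genes: Slc38a4 rose, and Slc16a1, Slc28a2, Fxyd2 and Gjb1 fell, of 17 tested. Fxyd2 had 0 and 1 UMIs in DUX-pulsed members, against 37.7 and 21.7 CPM in control members, so it was tested through its control counts. Among protease inhibitors and secreted carriers, Afp rose and Spink1, Trf and Cst3 fell, of 15 tested. The other pathway lists held up to 3 called genes each, beside 4.57% of all genes tested. Among tight junction genes, Ocln (70.1 and 79.5 CPM in DUX-pulsed members, against 32.9 and 32.6 CPM in control members) and Marveld2 rose and Cldn7 fell, of 15 tested. Both rises lie on chromosome 13, where the tested genes within 5 Mb had a median log2 fold change of 0.85, beside 1.19 for Ocln and 1.30 for Marveld2. Cldn7, a claudin of simple epithelia, had 421 and 461 CPM, against 750 and 716 CPM. Among IGF binding and insulin signalling genes, Igfbp3 and Igfbp4 rose, of 13 tested, and 0 fell by edgeR or DESeq2, with 1 lower at an unadjusted p under 0.05. Igfbp3 had 52.2 and 105 CPM, against 26.3 and 37.0 CPM. Of 10 tested retinoid genes, Crabp1 and Rdh10 rose and Cyp26a1 fell. Flt1 was the 1 call among 7 genes of the VEGF pathway, at 237 and 240 CPM against 396 and 438 CPM. Its log2 fold change was -0.80, and the tested genes within 5 Mb of it, on chromosome 5, had a median of -0.38. Of 6 tested Hedgehog genes, the ligand Ihh fell to 45.0 and 33.8 CPM in DUX-pulsed members, against 101 and 80.8 CPM in control members, while the receptor gene Ptch1 and the transcription factor gene Gli3 rose. Ptch1 and Gli3 lie on chromosome 13 as well, with medians of 0.77 and 0.96 within 5 Mb, beside their own 2.02 and 2.97. Gli3 was not called with a replicate block (log2 fold change 2.94, adjusted p = 0.123 by edgeR). The WNT antagonists Sfrp5 and Frzb fell and the receptor gene Lgr5 rose, of 13 tested. Several of these calls were lost without 1 DUX-pulsed library, and for some, such as Flt1, the log2 fold change stayed near that of all libraries. Without DUX-pulsed library 1, Ptch1, Cldn7, Flt1, Igfbp4 and Lgr5 were not called (log2 fold changes 0.91, -0.67, -0.79, 0.59 and 1.32). Nor were Slc16a1, Spink1 and Cst3 (-0.73, -0.88 and -0.79). Without DUX-pulsed library 2, Igfbp3, Ihh and Rdh10 were not called (0.72, -1.02 and 0.68), nor were Cst3 and Slc28a2 (-0.75 and -1.79). Ptch1, Cldn7, Flt1 and Igfbp4 were also not called without the cells in the top 5% of doublet scores (adjusted p from 0.0562 to 0.254 by edgeR). The same held for Slc16a1, Slc28a2, Slc38a4 and Cst3 (adjusted p from 0.0503 to 0.0673 by edgeR). The stress and dissociation list had 1 call of 16, the immediate early gene Jun, at 549 and 457 CPM against 222 and 222 CPM. The S phase list had 0 calls by edgeR and 0 by DESeq2 among 14 tested genes, with 0 higher and 1 lower at an unadjusted p under 0.05. The p53 target and imprinted gene lists, also of 14 tested genes each, had 0 calls by edgeR and 0 by DESeq2, with 4 higher and 0 lower and with 4 higher and 1 lower at an unadjusted p under 0.05.

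Position on the chromosome went with the changes. Of 355 rises with a position in GENCODE vM21, 206 (58.0%) lay on chromosomes 4 and 13, which held 9.70% of tested genes. On chromosome 13, 123 of 449 tested genes rose and 1 fell, with a median log2 fold change of 0.89 in member cells and 1.01 in the other kept cells. The medians per 10 Mb of chromosome 13 lay between 0.75 and 1.26 in member cells in every window past the first, where the median was 0.04. On chromosome 4 the shift stood in the windows from 130 Mb on, with medians of 0.84, 0.71 and 0.88. On chromosome 5 the median was -0.28, with 30 falls among 808 tested genes, and the windows between 110 and 150 Mb had medians of -0.39 to -0.48. Of the 12 largest rises, 6 lay on these chromosomes: Vcan, Ptch1 and Nop16 on chromosome 13, and Stmn1, Espn and Snhg12 on chromosome 4. Eno1, a glycolytic enzyme gene of the shifted part of chromosome 4, had 948 and 934 CPM in DUX-pulsed members, against 326 and 342 CPM in control members. Ghrl, Rab25, Nnat, Ccnd1, St3gal1 and Onecut2 lie elsewhere, and the tested genes within 5 Mb of Rab25 had a median of -0.05. With chromosomes 4, 5 and 13 left out of the fit, a choice made after seeing the data, 122 genes rose and 132 fell among 10493 tested. The number of copies of these chromosomes in each culture was not tested.

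**Figure D5:**
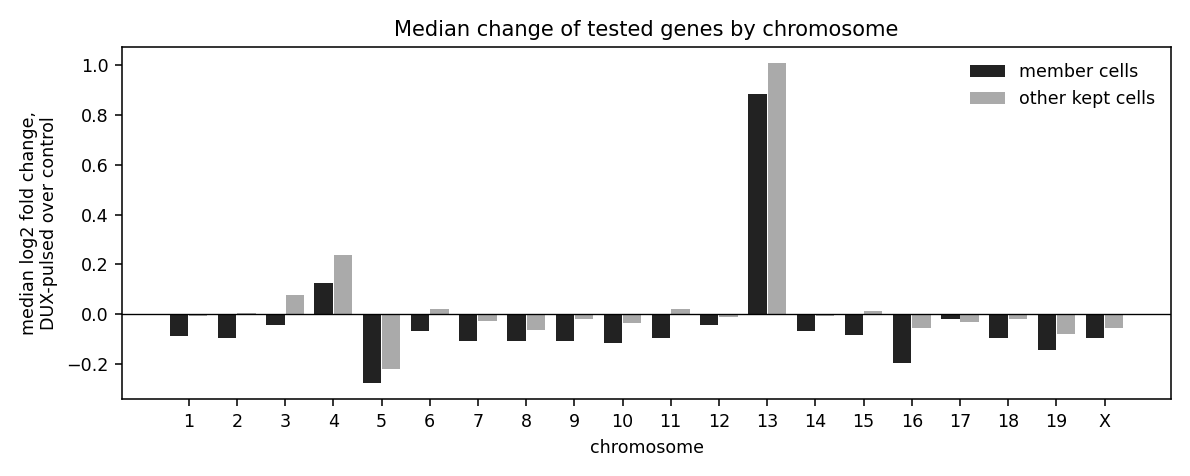
Median log2 fold change, DUX-pulsed over control, of the tested genes of each chromosome in member cells (black) and in the other kept cells (grey). Chromosome 13 stands at 0.89 and 1.01, chromosome 4 at 0.13 and 0.24, and chromosome 5 at -0.28 and -0.22.

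The change between DUX-pulsed and control libraries was set against that in the other kept cells in a model of both, with the library as a block. The difference was called for 221 of 12506 genes (1.77%). It was called for 2 of the 12 largest rises and 1 of the 12 largest falls. The other kept cells differ in makeup between the groups: 19.97% and 20.03% of DUX-pulsed and 5.03% and 3.79% of control kept cells were cardiomyocyte-like, and the part of this in each difference was not tested. Rab25 rose in members by a log2 fold change of 2.65, beside 0.31 in the other cells (adjusted p of the difference 0.000895 by edgeR). Nepn was at 1.11 in members and 0.09 in the other cells (adjusted p of the difference 0.00511 by edgeR). Apob fell by 1.66 on the log2 scale in members and by 2.82 in the other cells (adjusted p of the difference 0.0121 by edgeR). Cdx2 was at 0.04 in members and -1.31 in the other cells (adjusted p of the difference 0.0111 by edgeR). The light chain gene Myl7 had 12.6 and 13.9 CPM in DUX-pulsed members, against 58.9 and 40.4 CPM in control members, where single cells held up to 180 UMIs. With cells of 4 or more selecting genes Myl7 was called the other way (log2 fold change 2.08, adjusted p = 0.00193 by edgeR). Stmn1, Gjb1, Dnmt3b and Eno1 had log2 fold changes of 2.21, -3.31, -2.62 and 1.49 in members, beside 2.02, -3.21, -2.62 and 1.45 in the other cells, and their differences were not called by edgeR (adjusted p from 0.798 to 0.981).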

How the data were processed

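UMI counts per gene and cell were as the authors deposited them, raw whole numbers for all 4 libraries in 1 table. Per the submitters' processing notes, Cell Ranger 2.2.0, STAR and mm10 were used; the cell filter is not given in the sources used here. Group and replicate were read from column names. Kept cells had 500 or more genes and no more than 10% mt- counts, doublets included. UMIs of member cells were summed per library, and DUX-pulsed was tested against control with edgeR 4.0.16 (quasi-likelihood test, TMM, two-sided, Benjamini-Hochberg, threshold 0.05) on genes with at least 10 counts in 2 libraries and 40 in all. The interaction was fitted on 8 sums. On simulated data of this size, 18 and 14 of 50 genes with a log2 change of 1 and -1 were called, 44 and 29 of 50 with 2 and -2, and 5 of 12306 unchanged genes. The simulation gave each gene the same spread in all 4 libraries. It held no shifted chromosomes and no single cells with most of a gene's UMIs, so error rates in the real data may differ. Members against other cells are described as summed CPM, with no test. Named genes were the 12 largest rises and falls whose higher group averaged 50 CPM or more and whose libraries did not overlap, the 2 list members with the smallest p of each list, the genes of the rule, and the largest ratios between cell populations; other list members that passed the test are named after their values were seen. Mitochondrial, ribosomal and predicted genes were not named. Intervals cover counting error only. Members and gene lists were chosen with earlier results of these data known. Reads of near-identical or overlapping genes cannot be told apart in such counts. Gene symbols were placed with GENCODE vM21, with 19987 of 20284 matching 1 gene. Alternatives were DESeq2 1.42.0, upper-quartile scaling, no filter on counts, a replicate block, each library left out, and other rules for cells. Fewer cells of a type and less RNA per cell cannot be told apart in the other kept cells.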

Additional observations from a re-analysis of the deposited data

Results flagged for a closer look

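For 12 of 87 named genes outside the rule, the DUX-pulsed against control change in member cells differed from that in the other kept cells (edgeR interaction, adjusted p under 0.05). Over all genes tested, this held for 221 of 12506 (1.77%). Named genes were chosen partly by their change or p in members, so the 2 shares cannot be compared. The values are differences of the 2 log2 changes, members minus other cells. They were positive for Cdx2 (1.30), Ccnd1 (1.13), Apob (1.11), Wnt5a (1.01), Nepn (0.96), Cldn7 (0.72) and Rab25 (2.28). They were negative for Myl7 (-4.24), Srgn (-3.23), Pyy (-1.95), Vegfc (-1.79) and Nefl (-1.74). Rab25, Ccnd1 and Nepn rose in members, while Cdx2 and Wnt5a were not called there and were lower in the other DUX-pulsed cells (log2 fold changes -1.31 and -0.99). Srgn, a proteoglycan gene of blood and parietal endoderm, had 7.19 and 9.93 CPM in DUX-pulsed members, against 54.0 and 42.1 CPM in control members. Vegfc, a lymphatic growth factor gene, had 8.99 and 9.93 CPM, against 17.0 and 20.2 CPM, and was not called in members (adjusted p = 0.23 by edgeR). Nefl, a neurofilament gene, had 57.5 and 11.9 CPM, against 124 and 104 CPM.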

How the results depend on the processing

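Other settings moved the counts of called genes, and the cause was not tested unless stated. Rises and falls among member cells numbered 599 and 471 with a replicate block, 519 and 472 with no filter on low counts, 212 and 131 under a stricter cell filter (1000 or more genes, no more than 5% mt- counts), 999 and 700 with UMIs in 4 or more selecting genes, 250 and 130 without the top 5% of doublet scores in each library, and 122 and 132 without chromosomes 4, 5 and 13, where fewer genes were tested. Replicate numbers are not stated to pair libraries, and same-numbered libraries deviated together with a correlation of 0.10, so the block carries no further weight. Leaving out 1 library at a time gave 3 to 420 rises and 2 to 260 falls. The low counts came without a control library, when the 1 control left was assumed to vary like the DUX-pulsed pair and only genes with at least 10 counts in a DUX-pulsed library were tested: 5 and 10 of 44 named genes kept their call, against 49 of 55 without either DUX-pulsed library. DESeq2 called 408 rises and 159 falls. Only the rule with 4 or more selecting genes turned any named gene round, Pyy (log2 fold change 0.14) and Myl7 (2.08). Calls of Dnd1, Ccnb1 and Fgfr1 held in 6 of 12, 7 of 13 and 8 of 14 alternatives. The member share of kept cells in DUX-pulsed libraries, 0.843% on average, was 0.925% under the stricter cell filter, 0.744% when up to 20% mt- counts were allowed, 0.159% with UMIs in all 6 selecting genes and 3.66% with 4 or more. It was 0.154% in cells thinned to 10000 UMIs and 1.04% in the same cells before thinning. The control share was 4.90% with all 6 genes, 34.6% with 4 or more and 6.22% after thinning, against 24.5% in the same cells before it. Requiring all 6 genes, or thinning, left under 5 member cells in a library, so genes were not tested there. With 18 and 11 DUX-pulsed cells, a gene with no UMI could have stood at up to 5.09 and 5.93 CPM in the 2 libraries (3 counts each).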

Other observations

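Several DUX-pulsed values rest on single cells, which the summed test does not see. One cell held 70.0% of Cited1 UMIs in DUX-pulsed library 1, 66.0% of Ptch1 UMIs, 52.4% of Ccnd1 UMIs and 77.8% of Ccnb1 UMIs. In DUX-pulsed library 2 a single cell held 83.2% of Igfbp1 UMIs and all UMIs of Slc39a5, Frzb and Pyy. Rab25, Stmn1, Nop16 and Ocln were spread, with at most 30.2% of UMIs in 1 cell of either DUX-pulsed library.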
